A study of Mus musculus with 9 samples.

Results

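The genes described here are the enzymes, transporters and regulators of glucose breakdown in mouse monocytes grown in vitro: 35 named genes of glycolysis, of the pentose phosphate pathway and of their control. They were found by gene symbol among the 46517 Ensembl gene IDs of a table of kallisto estimated counts, and all 35 were in it. All 35 also passed the filter on low counts, which left 14059 genes. The 9 libraries fall into 3 subsets of 3, which the labels call patrolling monocytes (pMo), intermediate monocytes (intMo) and conventional monocytes (cMo). Every library came from primary wild-type C57BL/6 cells, with no treatment named, and the sources used here give no age or sex. The series title places the cells in bone marrow cultures with OP9-DLL1, a stromal feeder line that carries a Notch ligand. The study set the subsets side by side, and the contrasts used here are pMo against intMo, intMo against cMo, and pMo against cMo. Since no label ties the libraries to separate cultures or animals, p-values measure only the spread between these libraries, which may be technical.

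Glycolysis splits glucose into pyruvate in the cytosol, and several of its steps can be run by more than 1 isozyme, a different gene for the same reaction. Phagocytes can send the pyruvate to lactate, which leaves through monocarboxylate transporters, or into mitochondria through pyruvate dehydrogenase. The pentose phosphate pathway branches off after the first step and yields NADPH and ribose. The bifunctional PFKFB enzymes set the level of the signal that switches phosphofructokinase on, and the transcription factor HIF-1, of which Hif1a encodes the oxygen-regulated part, is a known activator of many of these genes.

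Members moved both up and down against cMo. At an edgeR adjusted p under 0.05, 3 members rose in pMo against intMo and 0 fell, where 4.99% of all genes tested were called (3.29% higher and 1.69% lower). In intMo against cMo, 4 members rose and 6 fell, where 24.4% of all genes were called (14% higher and 10.4% lower). In pMo against cMo, 6 rose and 7 fell, where 33.1% of all genes were called (17.2% higher and 15.9% lower). The libraries of the subsets did not overlap for 7 members above and 3 below in pMo against intMo, against 14.8% and 12.9% of all genes. They did not overlap for 5 members above and 10 below in intMo against cMo, against 21.2% and 20.1% of all genes. In pMo against cMo 8 members lay above and 16 below without overlap, against 26% and 23.5% of all genes. The median log2 change of the 35 members was 0.11 in pMo against intMo, -0.35 in intMo against cMo and -0.35 in pMo against cMo. Over all genes tested it was -0.0156 in pMo against intMo, -0.00833 in intMo against cMo and 0.0252 in pMo against cMo. Of the members, 15 were called in at least 1 comparison and 20 in none. Eno3 and Pfkfb3 were called higher in all 3 comparisons.

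**Figure D1:**
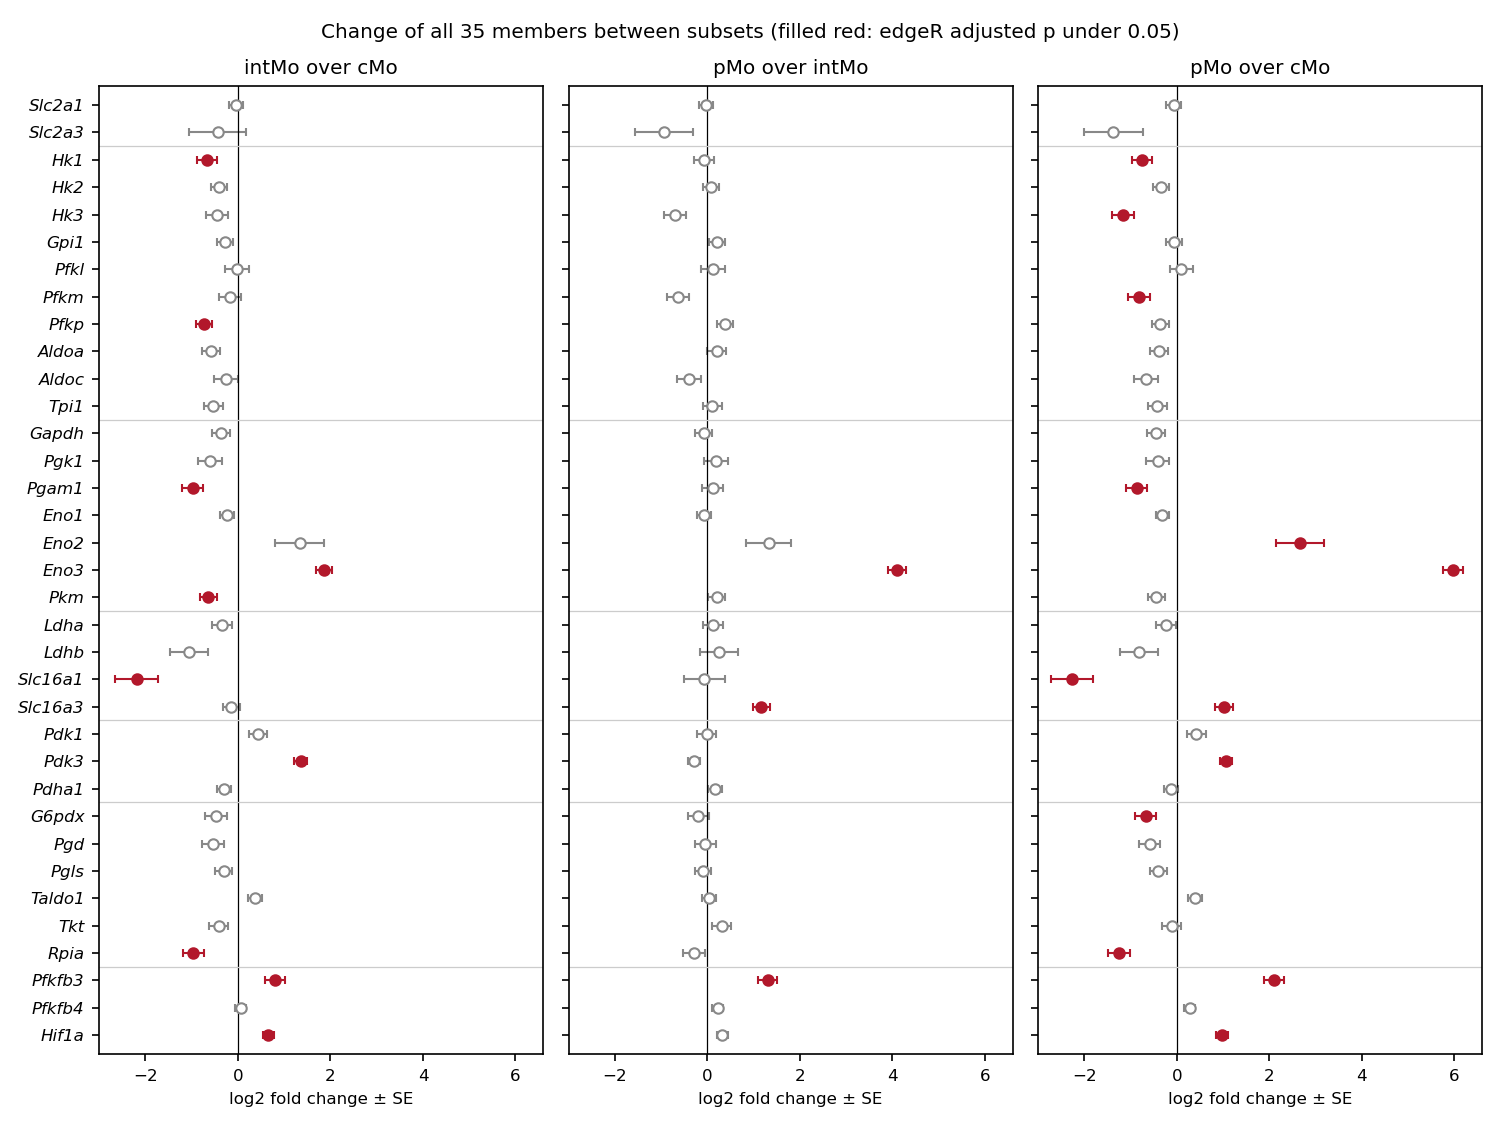
Log2 fold change of each of the 35 members (down the page, grouped by role) with its standard error as a bar, in intMo against cMo (left), pMo against intMo (middle) and pMo against cMo (right); filled red points passed an edgeR adjusted p under 0.05. Most points lie between -1 and 1, and Eno3 stands apart at 4.11 in pMo against intMo and 5.97 in pMo against cMo.

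The libraries held between 18455116 and 29985684 estimated counts. Levels are in CPM, the count scaled to a common library size after TMM normalization. Summed CPM of 10 patrolling markers was 10032 to 12725 in pMo, 3843 to 4645 in intMo and 1386 to 1654 in cMo. For 10 conventional markers it was 4413 to 7720 in pMo, 3409 to 8521 in intMo and 13505 to 28510 in cMo, so the markers followed the labels at both ends. Libraries numbered 0 stood apart: log2 CPM correlated at 0.951 to 0.975 between library 0 and the others of its subset, against at least 0.986 between libraries 1 and 2. The cMo library 0 lay above both other cMo libraries for 27 of the 35 members, by a median log2 of 0.54 against their mean. It also held the highest sum of 15 granulocyte and progenitor markers, 12725 CPM against 2515 and 2851 CPM in the other cMo libraries. Its part in the lower values of the members in pMo and intMo was not tested beyond leaving it out. Values without it are given beside some results only. The medians and the counts without overlap given above include it. In bulk samples, fewer cells of a type and less RNA per cell cannot be told apart.

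**Figure D2:**
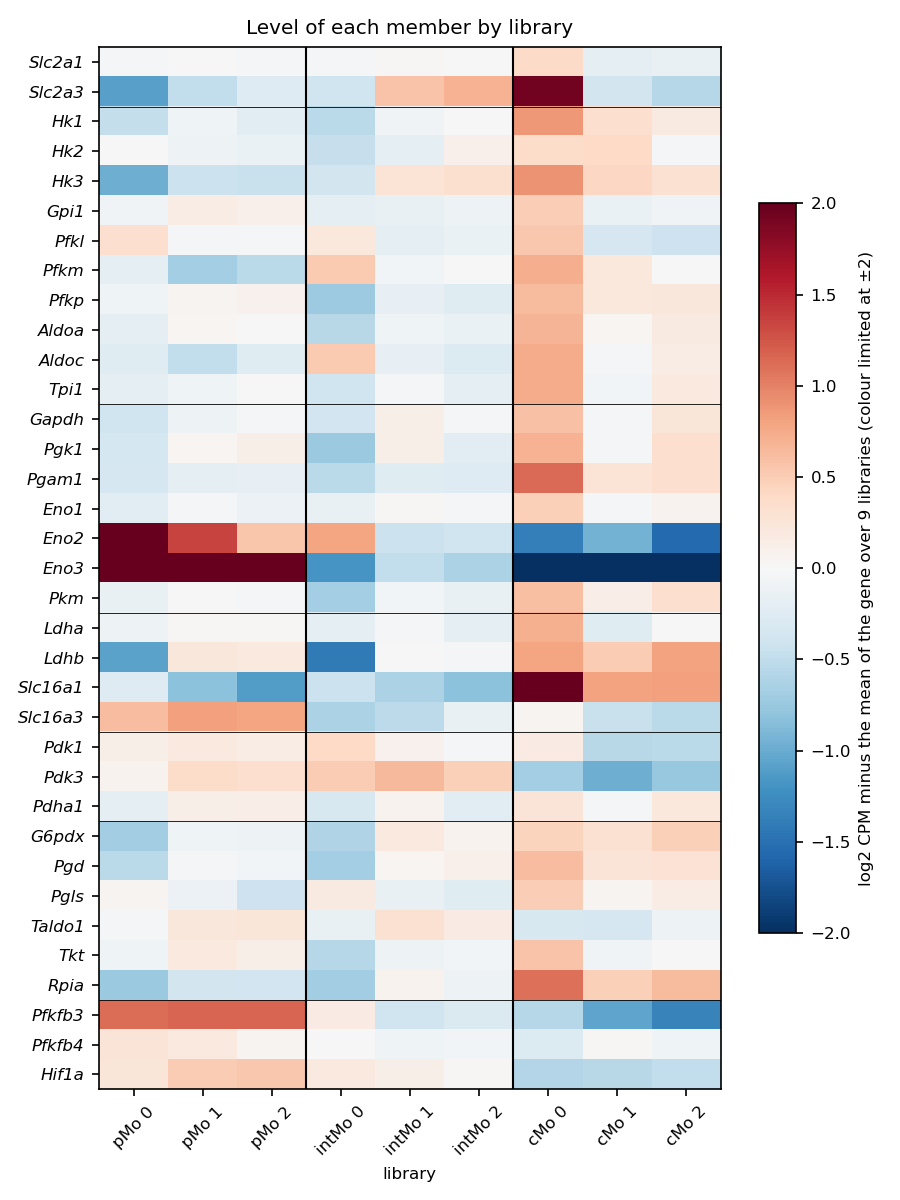
Log2 CPM of each member (down the page) in each of the 9 libraries (columns, with pMo left, intMo in the middle and cMo right), as the difference from the member's mean over the 9 libraries, with the colour limited at 2 log2 units either way. The cMo library 0 column is high for most members, and the Eno3 row is high in the 3 pMo libraries.

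HIF-1 binds a short core motif, ACGTG or GCGTG. Promoters are shown for Eno3, Pfkfb3 and Slc16a3, the members called higher in pMo against intMo, and for Slc16a1, the transporter that changed the other way from Slc16a3 in pMo against cMo. This choice was made with their values known. Eno2, Pdk3, Rpia, Hk3, Hk1, Pgam1, Pkm, Pfkp, Pfkm, G6pdx and Hif1a, which were also called in a comparison, are not printed. Each window runs from 250 bases before to 50 bases after a start site in RefSeq (build GRCm38.p6), and is given 5′ to 3′ on the gene's strand. Capitals mark ACGTG or GCGTG on either strand (CACGT and CACGC on the strand shown), and adjacent or overlapping matches run together.
Eno3, chr11:70656926-70657225, plus strand: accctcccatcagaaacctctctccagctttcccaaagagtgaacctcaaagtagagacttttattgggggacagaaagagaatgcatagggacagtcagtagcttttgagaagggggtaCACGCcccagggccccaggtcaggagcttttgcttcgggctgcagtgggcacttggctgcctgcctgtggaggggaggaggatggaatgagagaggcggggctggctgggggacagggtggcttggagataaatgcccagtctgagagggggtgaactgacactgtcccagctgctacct
Pfkfb3, first start, chr2:11553880-11554179, minus strand: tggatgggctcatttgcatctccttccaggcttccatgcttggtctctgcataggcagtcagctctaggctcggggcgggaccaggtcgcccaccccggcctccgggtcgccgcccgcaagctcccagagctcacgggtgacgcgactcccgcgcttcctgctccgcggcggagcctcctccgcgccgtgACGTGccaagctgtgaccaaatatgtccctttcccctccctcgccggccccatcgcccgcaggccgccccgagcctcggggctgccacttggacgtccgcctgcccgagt
Pfkfb3, second start, chr2:11502041-11502340, minus strand: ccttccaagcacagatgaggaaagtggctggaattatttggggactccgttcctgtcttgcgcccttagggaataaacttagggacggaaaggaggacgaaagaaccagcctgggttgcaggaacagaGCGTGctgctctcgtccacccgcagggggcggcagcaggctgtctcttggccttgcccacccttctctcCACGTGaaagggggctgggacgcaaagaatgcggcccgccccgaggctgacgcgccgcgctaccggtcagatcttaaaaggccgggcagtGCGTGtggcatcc
Slc16a3, chr11:120948817-120949116, plus strand: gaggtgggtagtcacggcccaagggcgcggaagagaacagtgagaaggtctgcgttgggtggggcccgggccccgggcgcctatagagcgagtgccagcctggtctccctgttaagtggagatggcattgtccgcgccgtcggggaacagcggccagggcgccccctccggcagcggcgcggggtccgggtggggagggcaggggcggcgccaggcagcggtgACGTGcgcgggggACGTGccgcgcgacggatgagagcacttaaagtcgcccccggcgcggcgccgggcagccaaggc
Slc16a1, chr3:104638414-104638713, plus strand: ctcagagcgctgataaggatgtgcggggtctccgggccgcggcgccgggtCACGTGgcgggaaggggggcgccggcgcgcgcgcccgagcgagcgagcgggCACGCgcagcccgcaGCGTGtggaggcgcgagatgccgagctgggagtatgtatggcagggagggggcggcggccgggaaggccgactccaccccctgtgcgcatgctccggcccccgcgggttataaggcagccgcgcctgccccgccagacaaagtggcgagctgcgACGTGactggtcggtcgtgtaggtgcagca

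The Eno3 window held 1 match, the first Pfkfb3 window 1, the second Pfkfb3 window 4, the Slc16a3 window 2 and the Slc16a1 window 5. RefSeq gave 48 promoters for 34 of the 35 members, all but Slc2a3. A match to ACGTG or GCGTG stood in 39 of these 48 promoters (81.2%), against 14380 of 32851 promoters of all genes (43.8%). ACGTG alone stood in 43.8% of member promoters and 19.6% of all promoters, and GCGTG alone in 60.4% and 32.4%. The palindrome CACGTG, which contains ACGTG on both strands, stood in 10.4% of member promoters and 7.15% of all promoters. The member promoters were also richer in G and C, at a median of 60.8% and 20 CG pairs a window, against 52.7% and 7 CG pairs in all promoters. How far base composition sets the share with a match was not tested. Every member with an entry had a match in at least 1 window except Eno2, Gpi1 and Tpi1.

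Eno3 encodes the beta isozyme of enolase, which makes phosphoenolpyruvate and is best known from muscle. The gene lies on chromosome 11 at 70657202 to 70662513 (GRCm38) and is protein coding. It had 456, 530 and 519 CPM in pMo, against 21.4, 34.4 and 31.3 CPM in intMo. In cMo it had 7.70, 8.19 and 8.14 CPM. Every pMo library lay above every intMo library, and every intMo library above every cMo library. The fold change was 17.3 for pMo against intMo (log2 4.11 ± 0.19 SE, edgeR adjusted p = 4.63e-05), which ranked 12 from the highest of 14059 genes. It was 3.63 for intMo against cMo (log2 1.86 ± 0.18, edgeR adjusted p = 0.000244) and 62.6 for pMo against cMo (log2 5.97 ± 0.21, edgeR adjusted p = 8.36e-07). Leaving out any 1 library kept the pMo against intMo change between 3.93 and 4.25.

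Both other enolases are among the members. Eno1, the widely expressed alpha isozyme, had 1016, 1169 and 1101 CPM in pMo, 1072, 1202 and 1167 CPM in intMo, and 1649, 1173 and 1246 CPM in cMo, and passed the test in no comparison. Eno2, the gamma isozyme known from neurons, had 2.96, 1.89 and 1.09 CPM in pMo, 1.29, 0.552 and 0.564 CPM in intMo, and 0.288, 0.387 and 0.252 CPM in cMo. It rose in pMo against cMo (log2 2.66 ± 0.52, edgeR adjusted p = 0.00461), on totals of 151 counts in pMo and 26 counts in cMo. Per kilobase of exon, Eno3 made up 58.6% ± 0.667 of the summed enolase level in pMo (SD, n = 3), 7.20% ± 1.23 in intMo and 1.84% ± 0.366 in cMo. With the longest annotated transcript as the length instead, the Eno3 share was 37.2% in pMo, 3.15% in intMo and 0.779% in cMo, so whether Eno3 or Eno1 was the larger in pMo depended on the length used. An exact two-sided permutation test gave p = 0.1 for each of the 3 differences in share, the smallest that 3 libraries against 3 allow. Of the 31-base words of Eno3 transcripts, 0% were found in any other gene, whereas 28.5% of those of Eno1 were.

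The protein-coding genes within 20 kb of Eno3 showed no change of that size. Gp1ba, Slc25a11, Rnf167, Pfn1, Spag7 and Camta2 were tested there. Of the 6, 0 were called in pMo against intMo, where 4.99% of all genes were called. Camta2, whose product is a transcription activator, had a mean of 219.6 ± 42.2 CPM in pMo, 171.0 ± 60.4 CPM in intMo and 90.5 ± 25.9 CPM in cMo (SD, n = 3 each) and rose in pMo against cMo (log2 1.28 ± 0.29, edgeR adjusted p = 0.00914). Pfn1, which encodes the actin-binding protein profilin, had 1290 ± 51.4 CPM in pMo and 853 ± 35.01 CPM in cMo (log2 0.60 ± 0.11, edgeR adjusted p = 0.00299). Slc25a11 also rose in pMo against cMo (log2 0.40 ± 0.12, edgeR adjusted p = 0.0247). In intMo against cMo, Camta2 (log2 0.92 ± 0.29, edgeR adjusted p = 0.0453) and Pfn1 (log2 0.34 ± 0.11, edgeR adjusted p = 0.0434) rose. Of all genes, 14% rose in intMo against cMo and 17.2% in pMo against cMo. The neighbours were chosen by position.

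Markers of other cells were measured beside Eno3. Summed CPM of 15 stromal markers, of which Igfbp4 was the most abundant and Dcn was at 0 in all libraries, was 288 to 532 in pMo, 260 to 769 in intMo and 131 to 198 in cMo. Of 13 tested stromal markers, 11 rose and 1, Igfbp4, fell in both comparisons with cMo, and 0 were called in pMo against intMo. Of all genes, 14% rose in intMo against cMo and 17.2% in pMo against cMo, and 4.99% were called in pMo against intMo. Igfbp4 made up most of the cMo sums, at 173, 120 and 110 CPM. The sums therefore understate the rise of the other markers. Col1a1, for example, averaged 45.8 CPM in pMo, 52.8 CPM in intMo and 1.76 CPM in cMo. Summed CPM of 18 cell cycle genes was 595 to 959 in pMo, 604 to 2470 in intMo and 3988 to 5029 in cMo. Stromal sums were higher in pMo and intMo than in cMo, as was Eno3, and cell cycle sums were lower. Summed CPM of 11 macrophage markers, led by Apoe, was 3162 to 4041 in pMo, 5351 to 10092 in intMo and 639 to 1833 in cMo. Of these 11, 8 rose and 2, Gpnmb and Trem2, fell in both comparisons with cMo, and Mrc1 was called in neither. In pMo against intMo 0 of the 11 were called. Lymphoid markers summed to at most 64.3 CPM and erythroid and megakaryocyte markers to at most 62.7 CPM, both in intMo library 0, with Cd8a and Pf4 the most abundant. The part of these cells or of cell cycling in the Eno3 difference was not tested.

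**Figure D3:**
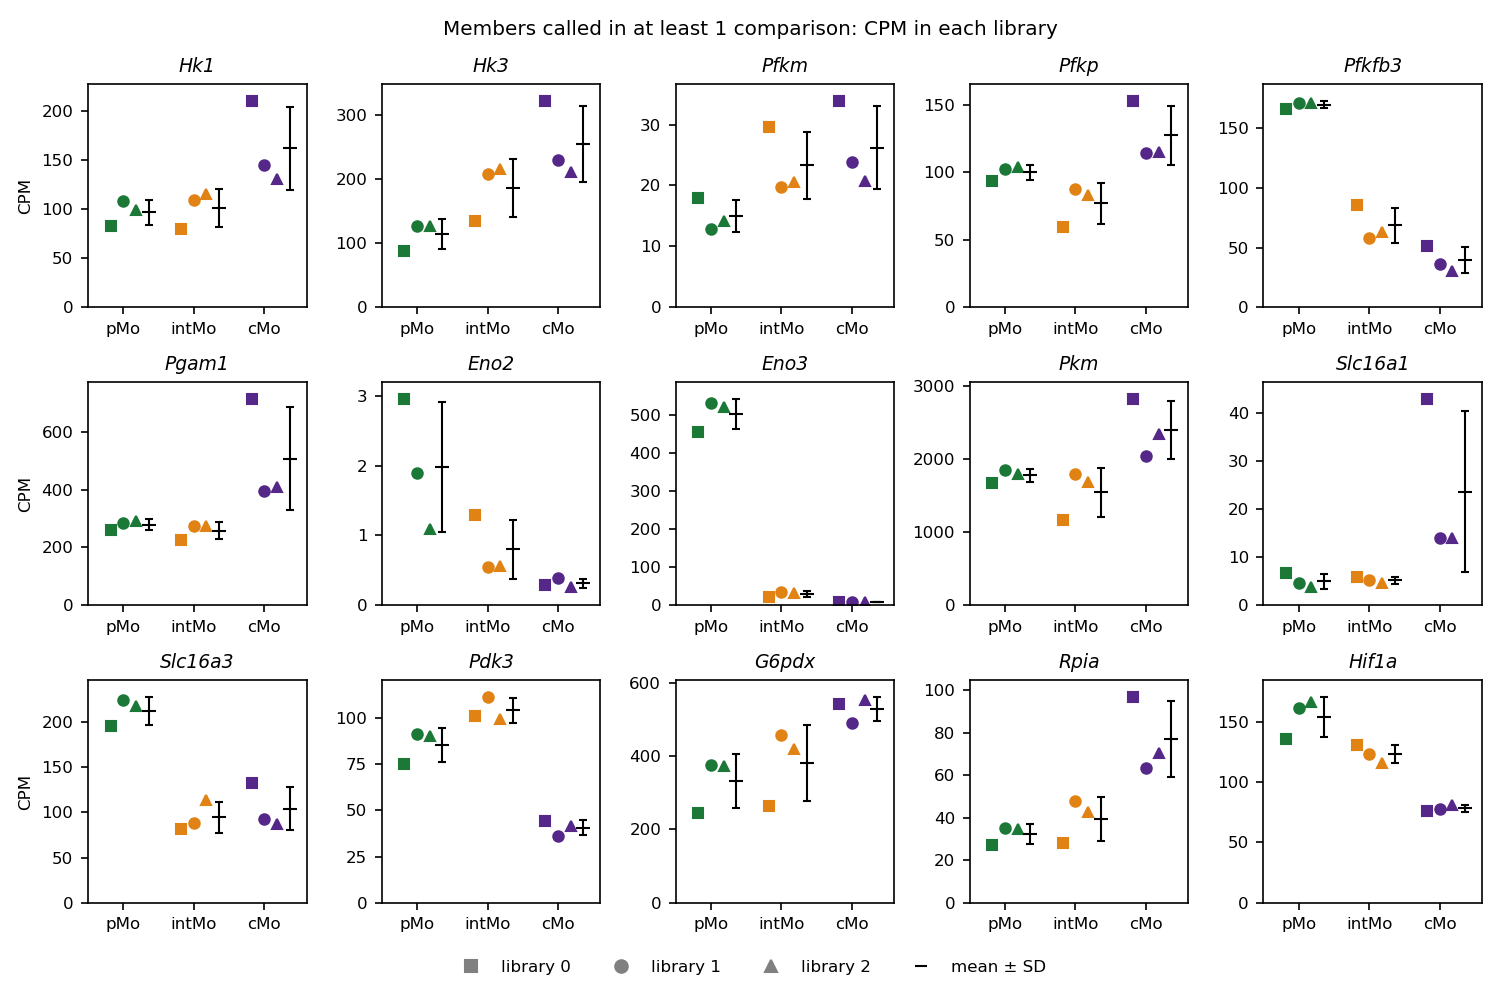
CPM on a linear axis from 0 in each library (points) with mean ± SD (bars), for the 15 members called in at least 1 comparison, with pMo left, intMo in the middle and cMo right in each panel. Eno3 and Pfkfb3 step down from pMo through intMo to cMo without overlap, and Slc16a1, Pgam1 and Rpia are high in cMo with library 0 above the other cMo libraries.

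Glucose enters through facilitative transporters, and neither of the members passed the unpaired test of all libraries. Slc2a1, which encodes the widely used transporter GLUT1, had 52.5, 53.7 and 53.2 CPM in pMo, 53.0, 55.1 and 54.5 CPM in intMo, and 70.5, 47.7 and 48.9 CPM in cMo. Its pMo and intMo libraries spanned a few CPM, and the cMo libraries lay on both sides of them. Slc2a3, which encodes the high-affinity transporter GLUT3, had 8.87, 13.4 and 15.9 CPM in pMo, 14.3, 28.0 and 30.5 CPM in intMo, and 71.6, 14.6 and 12.7 CPM in cMo. The cMo library 0 alone held the high value. In the fit of pMo and intMo alone, with libraries paired by number, Slc2a3 was called lower in pMo (log2 -0.92, edgeR adjusted p = 0.00153). With libraries 1 and 2 alone, Slc2a3 was called higher in intMo against cMo (log2 1.11, edgeR adjusted p = 0.000779), opposite in sign to the fit of all libraries (log2 -0.44 ± 0.62, edgeR adjusted p = 0.645).

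The 10 enzymes from glucose to the triose phosphates had 0 called members in pMo against intMo in the unpaired fit of all libraries. In intMo against cMo 0 rose and 2 fell (Hk1 and Pfkp), and in pMo against cMo 0 rose and 3 fell (Hk1, Hk3 and Pfkm). Of all genes, 4.99% were called in pMo against intMo. Against cMo, 14% rose and 10.4% fell in intMo, and 17.2% rose and 15.9% fell in pMo. Hexokinases trap glucose in the cell as glucose 6-phosphate. Hk3, the hexokinase typical of myeloid cells, had 87.7, 127.5 and 127.3 CPM in pMo, 134.1, 208.6 and 215.6 CPM in intMo, and 322, 231 and 212 CPM in cMo. All pMo libraries lay below all intMo and all cMo libraries, while intMo and cMo overlapped. Hk3 fell in pMo against cMo (log2 -1.16 ± 0.24, edgeR adjusted p = 0.00634) and missed the threshold in pMo against intMo (log2 -0.71 ± 0.24, edgeR adjusted p = 0.146). In the fit of pMo and intMo alone, with libraries paired by number, it was called lower in pMo (log2 -0.71, edgeR adjusted p = 0.00121).

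Hk1, the widely expressed hexokinase, had 82.6, 107.9 and 99.6 CPM in pMo, 79.6, 109.7 and 115.3 CPM in intMo, and 210.5, 145.3 and 130.4 CPM in cMo. Both lower subsets lay below every cMo library. Hk1 fell in intMo against cMo (log2 -0.67 ± 0.21, edgeR adjusted p = 0.0473) and in pMo against cMo (log2 -0.74 ± 0.21, edgeR adjusted p = 0.0255). Neither call was firm. The first call needed nearly every library, since it survived the removal of cMo library 2 and of no other (edgeR adjusted p up to 0.141), and the log2 change was -0.44 without cMo library 0 and -0.29 with libraries 1 and 2 alone. The second was lost without cMo library 0 or any 1 pMo library (edgeR adjusted p up to 0.0915), and with libraries 1 and 2 alone its change was -0.41. Hk2, the inducible hexokinase, had 99.6 to 110.2 CPM in pMo, 79.9 to 117.7 CPM in intMo and 107.8 to 144.2 CPM in cMo and passed no test. Per kilobase of exon, Hk3 held 51.5% ± 4.96 of the summed hexokinase level in pMo, 63.8% ± 2.23 in intMo and 62.7% ± 2.13 in cMo (SD, n = 3 each). Hk2 held 29.5% ± 5.20 in pMo, 21.0% ± 1.89 in intMo and 20.2% ± 2.95 in cMo. For these shares of Hk3 and Hk2 the pMo libraries did not overlap those of intMo or cMo (exact permutation p = 0.1 each, the smallest possible). Hk1 held 18.9% ± 0.612 in pMo, 15.2% ± 0.544 in intMo and 17.1% ± 0.917 in cMo, with no overlap between any pair of subsets (exact permutation p = 0.1 each). With the longest annotated transcript as the length, Hk1 held 29.4% in pMo, 24.0% in intMo and 26.7% in cMo. Hk2 then held 24.9%, 18.1% and 17.1%, and Hk3 45.8%, 57.9% and 56.1%, in the same order of subsets. Which of Hk1 and Hk2 was the larger therefore depended on the length used.

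Phosphofructokinase commits sugar to glycolysis and has liver (Pfkl), muscle (Pfkm) and platelet (Pfkp) isozymes. Pfkp had 93.3, 102.4 and 104.1 CPM in pMo, 59.7, 87.8 and 83.5 CPM in intMo, and 152.8, 114.4 and 115.1 CPM in cMo. The intMo libraries lay below all others, with pMo between intMo and cMo and no overlap. Pfkp fell in intMo against cMo (log2 -0.73 ± 0.18, edgeR adjusted p = 0.0172), and the change was -0.42 with libraries 1 and 2 alone. Pfkm had 17.99, 12.8 and 14.2 CPM in pMo, 29.5, 19.8 and 20.5 CPM in intMo, and 33.9, 23.9 and 20.8 CPM in cMo, so that every pMo library lay below every other. It fell in pMo against cMo (log2 -0.81 ± 0.24, edgeR adjusted p = 0.0288), and this failed without cMo library 0, pMo library 1 or pMo library 2 (edgeR adjusted p up to 0.106). Without cMo library 0 the log2 change was -0.58. In the fit of pMo and intMo alone, with libraries paired by number, Pfkm was called lower in pMo (log2 -0.64, edgeR adjusted p = 0.00722). Pfkl, at 129.5 to 166.6 CPM in pMo, 116.1 to 153.6 CPM in intMo and 99.5 to 192.4 CPM in cMo, passed no test. Pfkm and Pfkp overlap Senp1 and Pitrm1 on the opposite strand. The counts summed over libraries were 13624 for Senp1 beside 4961 for Pfkm, and 8981 for Pitrm1 beside 23970 for Pfkp. Both members' counts are uncertain, because no source used here gives the strand setting of the counting.

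The remaining upper enzymes passed no test. Gpi1, glucose 6-phosphate isomerase, had 745 to 871 CPM in pMo, 682 to 728 CPM in intMo and 713 to 1100 CPM in cMo. Aldoa, the main aldolase, had 953 to 1115 CPM in pMo, 736 to 1026 CPM in intMo and 1121 to 1747 CPM in cMo. All 3 pMo and all 3 intMo libraries of Aldoa lay below all cMo libraries, but the log2 change was -0.57 in intMo against cMo (edgeR adjusted p = 0.0609) and -0.37 in pMo against cMo. Aldoc, the brain aldolase, ranged from 15.0 CPM in a pMo library to 35.6 CPM in cMo library 0. Tpi1, triose phosphate isomerase, had 295 to 335 CPM in pMo, 253 to 327 CPM in intMo and 321 to 560 CPM in cMo.

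Among the 7 genes from glyceraldehyde 3-phosphate to pyruvate, Eno3 alone rose in pMo against intMo and in intMo against cMo, and Eno3 and Eno2 rose in pMo against cMo. Pgam1 and Pkm fell in intMo against cMo, and Pgam1 in pMo against cMo. Pgam1, phosphoglycerate mutase, had 259, 285 and 292 CPM in pMo, 224, 275 and 273 CPM in intMo, and 714, 396 and 411 CPM in cMo. Every cMo library lay above every pMo and intMo library, and cMo library 0 lay far above the other cMo libraries. The log2 change was -0.98 ± 0.22 in intMo against cMo (edgeR adjusted p = 0.0133) and -0.86 ± 0.22 in pMo against cMo (edgeR adjusted p = 0.0163). Without cMo library 0 the log2 changes were -0.65 in intMo against cMo and -0.54 in pMo against cMo. The pMo against cMo call was lost without pMo library 0 or pMo library 1 (edgeR adjusted p up to 0.0572).

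Pkm, pyruvate kinase, had 1676, 1848 and 1803 CPM in pMo, 1161, 1797 and 1680 CPM in intMo, and 2827, 2042 and 2341 CPM in cMo. The pMo and intMo libraries all lay below the cMo libraries. Pkm fell in intMo against cMo (log2 -0.64 ± 0.18, edgeR adjusted p = 0.034), but the call was lost on leaving out cMo library 0, cMo library 2, intMo library 0, intMo library 2, pMo library 1 or pMo library 2 (edgeR adjusted p up to 0.0979). With libraries 1 and 2 alone the change was -0.33 (edgeR adjusted p = 0.0713). Gapdh, the most abundant member in CPM, had 1519 to 1975 CPM in pMo, 1531 to 2169 CPM in intMo and 1976 to 2997 CPM in cMo and passed no test. Pgk1, phosphoglycerate kinase, had 403 to 560 CPM in pMo, 308 to 561 CPM in intMo and 504 to 838 CPM in cMo and passed no test either. Reads of several of these genes can be shared with copies: 28.1% of the 31-base words of Gapdh, 54.7% of those of Pgk1 and 37.1% of those of Pgam1 also stand in other genes of the annotation. The copies that share at least 20% held 18.3% of the summed counts for Gapdh, 14.2% for Pgk1 and 5.95% for Pgam1. With counts of each gene and its copies summed, the numbers of members called higher and lower were the same as without summing in all 3 comparisons.

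Lactate is made by lactate dehydrogenase and carried with a proton by monocarboxylate transporters, and in pMo against cMo the transporters moved in opposite directions. Slc16a3 encodes MCT4, known as a lactate exporter of glycolytic cells, and lies on chromosome 11 at 120948480 to 120960868. It had 195, 224 and 218 CPM in pMo, 81.3, 88.2 and 113.9 CPM in intMo, and 132.0, 92.8 and 87.6 CPM in cMo. All pMo libraries lay above all others, and intMo and cMo overlapped. Slc16a3 rose in pMo against intMo (log2 1.17 ± 0.19, edgeR adjusted p = 0.00994) and in pMo against cMo (log2 1.03 ± 0.19, edgeR adjusted p = 0.00349). The pMo against intMo call missed the threshold without pMo library 1 (edgeR adjusted p = 0.0518).

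Slc16a1 encodes MCT1, a transporter that carries lactate and pyruvate either way, and lies on chromosome 3 at 104638668 to 104658462. It had 6.66, 4.52 and 3.67 CPM in pMo, 5.90, 5.14 and 4.51 CPM in intMo, and 43.0, 13.9 and 14.0 CPM in cMo. The cMo libraries lay above all others, and the value of cMo library 0 was the highest. Slc16a1 fell in intMo against cMo (log2 -2.19 ± 0.46, edgeR adjusted p = 0.00895) and in pMo against cMo (log2 -2.25 ± 0.46, edgeR adjusted p = 0.00549). Without cMo library 0 it was still called, at log2 changes of -1.43 in intMo against cMo and -1.50 in pMo against cMo. Per kilobase of exon, Slc16a3 held 97.2% ± 1.04 of the summed level of both transporters in pMo, 93.6% ± 1.75 in intMo and 80.2% ± 7.23 in cMo (SD, n = 3 each), with no overlap between subsets (exact permutation p = 0.1 each, the smallest possible). Ldha, the dehydrogenase isozyme of muscle type, had 532 to 581 CPM in pMo, 496 to 559 CPM in intMo and 479 to 928 CPM in cMo and passed no test. Ldhb, the isozyme of heart type, was at 7.72 to 18.9 CPM in pMo, 6.06 to 16.3 CPM in intMo and 23.0 to 28.4 CPM in cMo and missed the threshold in intMo against cMo (log2 -1.05 ± 0.41, edgeR adjusted p = 0.0948). It was called there with the replicate block (log2 -1.22, edgeR adjusted p = 0.0373), in the fit of libraries 1 and 2 (log2 -0.67, edgeR adjusted p = 0.00636) and with DESeq2 (log2 -1.06, adjusted p = 0.0369).

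**Figure D4:**
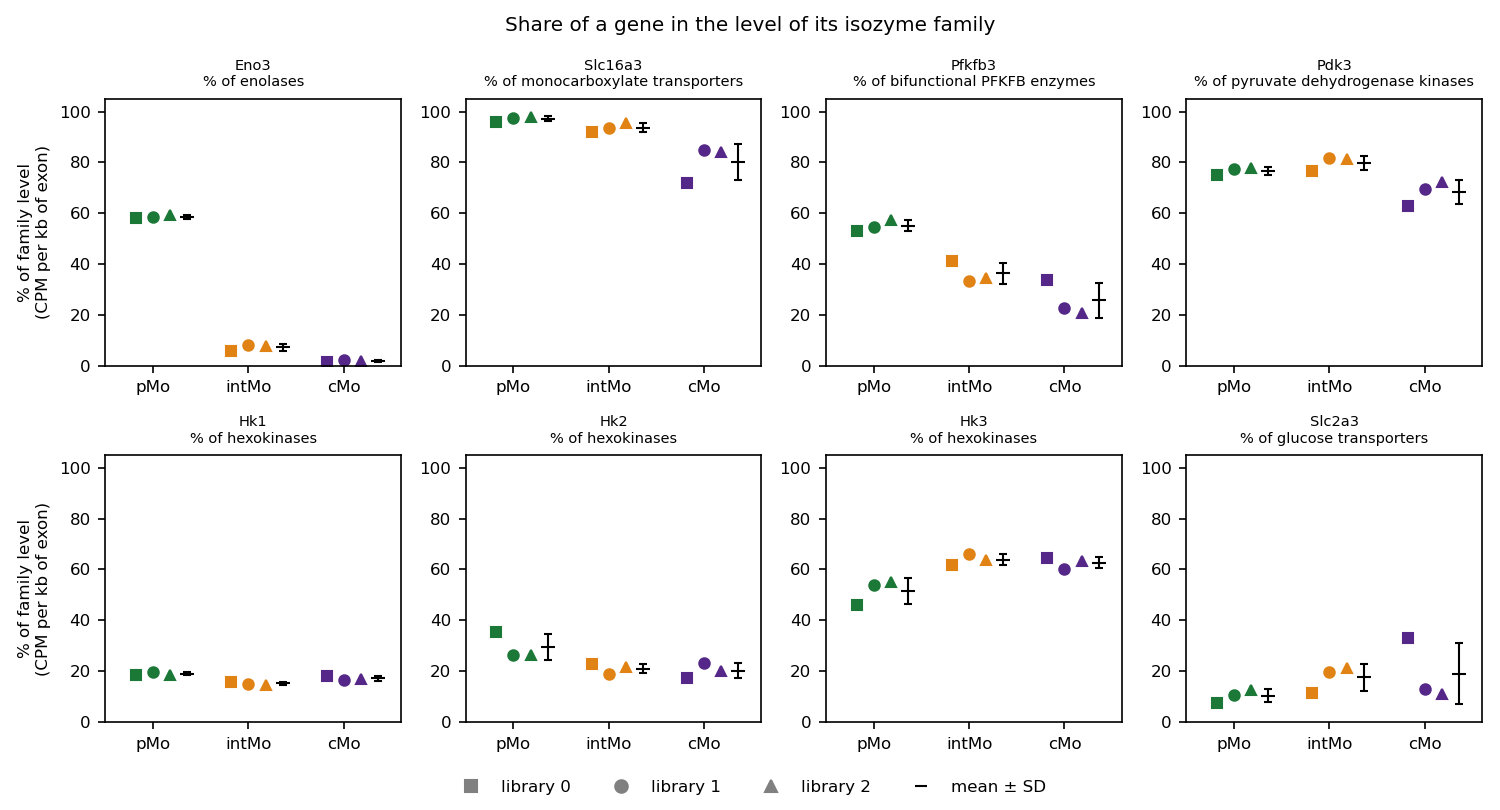
Share of 8 members in the summed level of their isozyme family (CPM per kilobase of exon, in percent) in each library (points), with mean ± SD, and with pMo left, intMo in the middle and cMo right. Eno3 holds 58.6% of the enolase level in pMo and 1.84% in cMo, while the Hk1 share lies at 18.6% to 19.7% of the hexokinase level in pMo, 14.7% to 15.8% in intMo and 16.4% to 18.2% in cMo.

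At the entry of pyruvate into mitochondria, Pdk3 rose and the other members, Pdk1 and Pdha1, passed no test. Outside the members, Pdk4 rose and Dlat fell in both comparisons with cMo, and Pdhx and Pdp1 fell in pMo against cMo. Pyruvate dehydrogenase kinases switch the pyruvate dehydrogenase complex off by phosphorylating the subunit that Pdha1 encodes. Pdk3 lies on the X chromosome at 93764607 to 93832201 and had 75.0, 91.4 and 90.1 CPM in pMo, 101.3, 111.7 and 99.5 CPM in intMo, and 44.3, 36.1 and 41.9 CPM in cMo. The intMo libraries were highest, and the pMo libraries lay between them and the cMo libraries without overlap. It rose in intMo against cMo (log2 1.35 ± 0.13, edgeR adjusted p = 0.000257) and in pMo against cMo (log2 1.07 ± 0.13, edgeR adjusted p = 0.000504), and was not called in pMo against intMo (log2 -0.28 ± 0.13, edgeR adjusted p = 0.282). Pdk1 had 76.3 to 81.3 CPM in pMo, 69.8 to 93.0 CPM in intMo, and 79.2, 48.2 and 48.7 CPM in cMo. Its test was missed with all libraries, but without cMo library 0 it was called higher in intMo against cMo (log2 0.71, edgeR adjusted p = 0.0113) and in pMo against cMo (log2 0.70, edgeR adjusted p = 0.00874). Pdha1 was at 136 to 170 CPM in pMo, 124 to 164 CPM in intMo and 152 to 185 CPM in cMo.

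In the pentose phosphate pathway 0 of 6 members were called in pMo against intMo, where 4.99% of all genes were called. Rpia fell in intMo against cMo, and Rpia and G6pdx fell in pMo against cMo. Rpia, ribose 5-phosphate isomerase, is at the step that yields ribose for nucleotides. It had 27.1, 35.4 and 34.8 CPM in pMo, 28.1, 48.0 and 42.5 CPM in intMo, and 97.1, 63.2 and 70.8 CPM in cMo. All cMo libraries lay above all others. The log2 change was -0.96 ± 0.23 in intMo against cMo (edgeR adjusted p = 0.0171) and -1.25 ± 0.23 in pMo against cMo (edgeR adjusted p = 0.00379). With libraries 1 and 2 alone it was -0.56 in intMo against cMo. The cell cycle sums given above were likewise highest in cMo, and their part in the Rpia difference was not tested.

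G6pdx, the rate-limiting dehydrogenase that opens the pathway, had 246, 376 and 373 CPM in pMo, 263, 458 and 420 CPM in intMo, and 542, 491 and 554 CPM in cMo. Both lower subsets lay below all cMo libraries. G6pdx fell in pMo against cMo (log2 -0.67 ± 0.23, edgeR adjusted p = 0.0494), but the call survived only the removal of intMo library 0 or intMo library 1, and failed without each of the other 7 libraries (edgeR adjusted p up to 0.155). It overlaps Ikbkg on the opposite strand, with 12544 counts for Ikbkg beside 98029 for G6pdx. Pgd, which makes the second NADPH, had 349 to 497 CPM in pMo, 316 to 542 CPM in intMo and 602 to 776 CPM in cMo, without overlap between cMo and the others, and was not called (edgeR adjusted p = 0.116 in intMo against cMo and 0.0781 in pMo against cMo). Taldo1, transaldolase of the non-oxidative arm, was at 686 to 831 CPM in pMo, 635 to 868 CPM in intMo and 555 to 659 CPM in cMo, so that its order ran opposite to that of Rpia and G6pdx, with no call (log2 0.40, edgeR adjusted p = 0.0738 in pMo against cMo). Tkt, transketolase, at 756 to 923 CPM in pMo, 541 to 773 CPM in intMo and 768 to 1187 CPM in cMo, and Pgls, 6-phosphogluconolactonase, at 49.2 to 92.8 CPM over all libraries, passed no test.

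Of the 3 control genes, Pfkfb3 and Hif1a rose and Pfkfb4 did not pass the test. Pfkfb3 makes the activator of phosphofructokinase and is the PFKFB enzyme with the most kinase activity. It lies on chromosome 2 at 11471433 to 11554077. It had 166, 172 and 172 CPM in pMo, 85.6, 58.1 and 62.7 CPM in intMo, and 51.6, 36.7 and 30.2 CPM in cMo. The subsets did not overlap. Pfkfb3 rose in pMo against intMo (log2 1.30 ± 0.21, edgeR adjusted p = 0.00994), in intMo against cMo (log2 0.80 ± 0.21, edgeR adjusted p = 0.0238) and in pMo against cMo (log2 2.10 ± 0.22, edgeR adjusted p = 0.000205). The intMo against cMo call was lost without cMo library 1, cMo library 2 or intMo library 0 (edgeR adjusted p up to 0.0707), and that of pMo against intMo without intMo library 2 (edgeR adjusted p = 0.0503).

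Pfkfb4, the related enzyme, had 82.3 to 94.7 CPM in pMo, 74.6 to 79.1 CPM in intMo and 65.7 to 80.4 CPM in cMo. Pfkfb3 therefore held 55.1% ± 2.15 of their summed level per kilobase in pMo, 36.4% ± 4.12 in intMo and 25.7% ± 6.95 in cMo (SD, n = 3 each). Hif1a, on chromosome 12 at 73901375 to 73947530, had 135, 162 and 166 CPM in pMo, 130.5, 123.1 and 115.5 CPM in intMo, and 75.8, 77.7 and 81.2 CPM in cMo, with no overlap between subsets. It rose in intMo against cMo (log2 0.65 ± 0.12, edgeR adjusted p = 0.00492) and in pMo against cMo (log2 0.98 ± 0.12, edgeR adjusted p = 0.000483). In pMo against intMo it was not called (log2 0.33 ± 0.12, edgeR adjusted p = 0.172). HIF-1 activity is set mostly by the stability of its protein, which these libraries do not measure. Immediate early genes, which respond to cell handling, summed to 1101 to 2776 CPM in pMo, 1279 to 3497 CPM in intMo and 577 to 648 CPM in cMo, and their part in the higher Hif1a and Pfkfb3 of pMo and intMo was not tested. Within intMo, library 0 had the highest immediate early sum and the highest Pfkfb3 and Hif1a, while within pMo, library 0 had the highest sum and the lowest Pfkfb3 and Hif1a.

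Libraries of pMo and intMo with the same number deviated together, so the fit with the number as a replicate block is given for that comparison. Unless stated, the calls above come from the fit without the block, whose p-values ignore this pairing. With the block and all 9 libraries, 3 members rose and 1 fell (Pfkm). With only the pMo and intMo libraries and the block, 5 rose (Pfkp and Eno2 besides Eno3, Pfkfb3 and Slc16a3) and 3 fell (Slc2a3, Hk3 and Pfkm), where 2589 genes were called in place of 701.

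Other genes of these pathways were counted from lists that share no gene with the members. Of all genes tested, 3.29% rose and 1.69% fell in pMo against intMo. The shares were 14% and 10.4% in intMo against cMo, and 17.2% and 15.9% in pMo against cMo. They stand beside the counts of every list below. Of 31 tested genes of glycolysis and the pentose phosphate pathway outside the members, 1 rose and 0 fell in pMo against intMo, 2 rose and 4 fell in intMo against cMo, and 2 rose and 7 fell in pMo against cMo. Slc2a6, which encodes the transporter GLUT6, had 58.7, 94.0 and 87.9 CPM in pMo, 8.47, 16.1 and 17.9 CPM in intMo, and 43.6, 70.3 and 67.5 CPM in cMo. The intMo libraries lay below all others. Slc2a6 rose in pMo against intMo (log2 2.496 ± 0.32, edgeR adjusted p = 0.00324) and fell in intMo against cMo (log2 -2.09 ± 0.31, edgeR adjusted p = 0.00195). Prps1, which turns ribose 5-phosphate into the precursor of nucleotides, averaged 10.5 ± 1.31 CPM in pMo, 13.9 ± 2.43 CPM in intMo and 34.9 ± 14.8 CPM in cMo (SD, n = 3 each) and fell in pMo against cMo (log2 -1.73 ± 0.29, edgeR adjusted p = 0.00211). Prps1 also fell in intMo against cMo (log2 -1.33 ± 0.28, edgeR adjusted p = 0.01). Pdk4 and Gpd1, which were under 1 CPM in cMo, rose in pMo and intMo against cMo, with log2 changes of 2.52 to 3.47.

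Of 4 tested genes of gluconeogenesis, 0 were called in pMo against intMo. In intMo against cMo 0 rose and 1 fell, and in pMo against cMo 0 rose and 2 fell. Pck2, mitochondrial phosphoenolpyruvate carboxykinase, fell in intMo against cMo (log2 -1.18 ± 0.24, edgeR adjusted p = 0.00755) and in pMo against cMo (log2 -0.92 ± 0.23, edgeR adjusted p = 0.0153). It averaged 52.5 ± 4.03 CPM in pMo, 43.9 ± 5.74 CPM in intMo and 99.3 ± 37.0 CPM in cMo. G6pc3 fell in pMo against cMo (log2 -0.74 ± 0.23, edgeR adjusted p = 0.0347). Both pMo against cMo calls were lost without pMo library 1 or pMo library 2. Of 14 tested glycogen genes, 1 rose and 0 fell in pMo against intMo, and 1 rose and 1 fell in each comparison with cMo. Of 8 tested genes of the HIF pathway, 0 were called in pMo against intMo, 1 rose and 0 fell in intMo against cMo, and 2 rose and 1 fell in pMo against cMo. Epas1, which encodes the related subunit HIF-2 alpha, rose in intMo against cMo (log2 1.75 ± 0.39, edgeR adjusted p = 0.0122) at a low level, 5.09 CPM in pMo, 5.99 CPM in intMo and 1.77 CPM in cMo. Epas1 also rose in pMo against cMo (log2 1.52 ± 0.39, edgeR adjusted p = 0.0159), a call lost without pMo library 0 (edgeR adjusted p = 0.0506). Of 9 tested genes of glucose sensing and the MYC network, 0 were called in pMo against intMo, 1 rose and 1 fell in intMo against cMo, and 0 rose and 1 fell in pMo against cMo.

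Known HIF targets outside sugar metabolism split in direction against cMo, as did all genes tested (14% higher and 10.4% lower in intMo, 17.2% and 15.9% in pMo). Of 19 tested, 2 rose and 0 fell in pMo against intMo, 4 rose and 4 fell in intMo against cMo, and 6 rose and 4 fell in pMo against cMo. Bhlhe40, a transcriptional repressor, had 165, 153 and 147 CPM in pMo, 38.2, 22.2 and 23.4 CPM in intMo, and 20.5, 8.40 and 7.31 CPM in cMo. The subsets did not overlap, in the same order as for Eno3 and Pfkfb3. It rose in pMo against intMo (log2 2.47 ± 0.39, edgeR adjusted p = 0.00882) and in pMo against cMo (log2 3.68 ± 0.41, edgeR adjusted p = 0.000333). Bhlhe40 rose in intMo against cMo as well (log2 1.21 ± 0.38, edgeR adjusted p = 0.0457). Ddit4, an inhibitor of mTORC1 signalling, averaged 49.98 ± 6.39 CPM in pMo, 67.2 ± 13.6 CPM in intMo and 12.9 ± 4.53 CPM in cMo, and rose in intMo against cMo (log2 2.38 ± 0.26, edgeR adjusted p = 0.000419). Ddit4 also rose in pMo against cMo (log2 1.96 ± 0.26, edgeR adjusted p = 0.000671). Ndrg1, a widely used hypoxia marker, went the other way, at 40.3 ± 14.1 CPM in pMo, 55.4 ± 12.9 CPM in intMo and 201.4 ± 24.2 CPM in cMo (log2 -2.32 ± 0.27, edgeR adjusted p = 0.00035 in pMo against cMo). Ndrg1 also fell in intMo against cMo (log2 -1.86 ± 0.26, edgeR adjusted p = 0.00139).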

How the data were processed

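Total RNA of 9 libraries was extracted with RNAzol and made into NEBNext Ultra II stranded libraries, per the labels' protocols. The authors deposited 1 table of estimated counts per gene, and the submitters' processing notes name kallisto 0.46.1 and mm10. No source used here gives the transcript annotation, the summing to genes or the strand setting. Gene names, lengths and coordinates (from 1) came from GENCODE M21 on GRCm38, which matched 46005 of 46517 IDs, and 512 did not match.

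Counts were rounded and genes kept with filterByExpr by subset. All 9 libraries were fitted together in edgeR 4.0.16 (R 4.3.3; TMM, robust quasi-likelihood F test, subset as the term), with Benjamini-Hochberg adjustment over 14059 genes and calls at an adjusted p under 0.05. CPM uses the TMM-scaled library size. Isozyme shares use CPM per kilobase of union exon and exact two-sided permutation tests. The edgeR fit was tested on simulated counts. Of simulated log2 changes of 1 either way, it called 28% in intMo against cMo, 27% in pMo against intMo and 37% in pMo against cMo. Of log2 changes of 2 it called 76%, 68% and 76%. Each simulation changed 100 genes at each size, drawn from all 14059, fewer than were called in the data. The adjusted p depends on that number, so these shares need not hold for the members. A member that passed no test may still differ. PCR copies could not be told from separate molecules.

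The members, the gene lists and the alternatives were chosen with earlier results of these data known. All members are named. From each other list the rule names the called genes of largest change, at most 3 a list and comparison, and the most abundant marker of each other cell type. Not every gene it takes is described.

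The labels' numbers 0, 1 and 2 were checked as pairs by correlating deviations of log2 CPM from subset means. Same-numbered libraries correlated at 0.588, 0.3 and 0.274 between pMo and intMo, and were taken as paired in the fits with the block only. They correlated at 0.0657, -0.143 and -0.0694 between intMo and cMo and at 0.179, -0.0156 and 0.23 between pMo and cMo, and were not taken as paired there. Libraries of different number were not correlated. The check therefore cannot tell pairs from a library 0 that stood apart in each subset. The alternatives were RLE and upper quartile scaling, other filters, DESeq2 1.42.0, the replicate block, fits of 2 subsets, libraries 1 and 2 alone, leaving out each library, and transcript length for shares. Summing copies and the block within 2 subsets were added after the data were seen.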

Additional observations from a re-analysis of the deposited data

How the results depend on the processing

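Eno3 passed the edgeR threshold in all 3 comparisons under every alternative run, and so did Pfkfb3, Slc16a3, Pdk3, Hif1a, Slc16a1 and Rpia in pMo against cMo. The number of members called lower in pMo against cMo ran between 3 and 10 on leaving out 1 library, with the lowest count without pMo library 1. The number of all genes called in pMo against intMo ran between 221 and 1107 on leaving out 1 library, and was 1417 with DESeq2. The cause was not tested.

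In the fits with the replicate block, which pairs libraries by number, pMo against intMo had 1 member called lower with all 9 libraries. With only those 2 subsets and the block it had 5 called higher, 3 called lower and 2589 genes in all. In intMo against cMo, where the numbers were not taken as pairs, 1 member was called lower and 1365 genes in all with 2 subsets and the block, and 3 members and 2213 genes with 2 subsets and no block. These fits hold fewer libraries. The intMo against cMo call of Hk1 was also lost with upper quartile scaling, the 1 CPM filter, either block and 2 subsets, that of Pkm with either block and 2 subsets, that of Pfkp in both fits of 2 subsets, that of Pfkfb3 with 2 subsets and no block, and those of Pgam1, Rpia, Hif1a, Pck2 and Epas1 with 2 subsets and the block. With all 9 libraries the block added calls of Ldhb in intMo against cMo, Pfkm in pMo against intMo, and Aldoc and Pgls in pMo against cMo. DESeq2 added Aldoa and Ldhb in intMo against cMo, and Slc2a3, Pgd and Taldo1 in pMo against cMo, and the fit of 2 subsets with no block added Aldoc, Pkm and Pgd in pMo against cMo. Neither block ended another call of a member, and with libraries 1 and 2 alone those of Hk1 and Pkm in intMo against cMo were lost as well. The block turned the log2 change of intMo against cMo to 0.026 for Pfkl with all libraries, and to 0.04 for Pfkl and 0.072 for Slc2a3 with 2 subsets, and that of pMo against intMo to 0.010 for Pdk1.

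With libraries 1 and 2 alone, 7 members were called higher in intMo against cMo, and 3 members lower and 2424 genes in all in pMo against intMo. Log2 changes that then turned sign were 0.19 for Slc2a1, 1.11 for Slc2a3, 0.22 for Pfkl, -0.035 for Pfkfb4, 0.0092 for Ldha and 0.17 for Slc16a3 in intMo against cMo. In pMo against intMo they were -0.092 for Hk2 and 0.14 for Pdk1. In pMo against cMo they were 0.15 for Slc2a1, 0.10 for Slc2a3, 0.23 for Gpi1, 0.14 for Ldha, 0.038 for Pdha1 and 0.20 for Tkt. Upper quartile scaling gave 0.016 for Slc2a1 and 0.04 for Pfkl in intMo against cMo and -0.021 for Taldo1 in pMo against intMo. A filter of 1 CPM gave 0.0072 for Pfkl in intMo against cMo.

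On leaving out 1 library, uncalled log2 changes that crossed 0 in intMo against cMo were Slc2a1 (-0.14 to 0.16), Slc2a3 (-0.83 to 0.83), Pfkl (-0.19 to 0.35), Pfkm (-0.37 to 0.056), Pfkfb4 (-0.019 to 0.12), Aldoc (-0.54 to 0.0045) and Slc16a3 (-0.29 to 0.065). In pMo against intMo they were Hk1 (-0.22 to 0.037), Hk2 (-0.047 to 0.24), Gapdh (-0.21 to 0.029), Pgk1 (-0.014 to 0.40), Ldhb (-0.087 to 0.56), Slc16a1 (-0.33 to 0.12), Pdk1 (-0.089 to 0.12), Pgd (-0.25 to 0.11), Pgls (-0.19 to 0.048) and Taldo1 (-0.081 to 0.14). In pMo against cMo they were Slc2a1 (-0.17 to 0.13), Gpi1 (-0.18 to 0.16), Pfkl (-0.069 to 0.47), Ldha (-0.42 to 0.093) and Tkt (-0.23 to 0.11). Differences in isozyme share that crossed 0, in percentage points, were Slc2a3 (-5.40 to 5.51), Hk2 (-0.55 to 2.39), Hk3 (-0.063 to 2.23), Pfkm (-1.29 to 0.97) and Aldoc (-0.11 to 0.89) in intMo against cMo and Ldhb (-0.78 to 1.54) in pMo against intMo. With the longest transcript as length, that of Pfkm was -0.065 in intMo against cMo.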
